A study of Mus musculus with 12 samples.

Results

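A set of 8 secreted ligands was examined, 5 CXC chemokines (Cxcl1, Cxcl2, Cxcl3, Cxcl5 and Cxcl12) and the 3 colony-stimulating factors Csf1, Csf2 and Csf3. They were taken by name, every probe whose accession maps to one of them being used, which gave 11 of the 39429 probes on the array. All 8 genes passed the filter on dim probes and belong to the 13829 genes that were tested. RNA of 3T3-L1 cells, a mouse embryonic fibroblast line that can be turned into fat cells and is spelled 3T3L-1 in the labels, was measured on 12 dual-colour arrays. On each array the red dye (Cy5) marked cells that had shared their medium with the mouse macrophage line Raw264.7 across a porous insert, and the green dye (Cy3) marked cells grown alone for the same time under the same treatment. The treatments were none (NT), 100 µM serotonin (S), 100 µM cortisol (C) and both hormones at those doses (CS), each for 6, 24 or 48 h. Each of the 12 conditions had a single array, so the 4 arrays of a time differ in treatment and stand in for replicates, and p-values measure the spread between these arrays only. The co-cultured RNA always carried Cy5, so a dye effect on a probe is not balanced, and the 4 arrays of each time shared 1 slide, which means that time cannot be told apart from slide. All 12 conditions used the same cell line without a separate induction into adipocytes in the labels, and RNA came from the well that held the 3T3-L1 cells, below an insert whose pores of 0.4 µm pass secreted molecules. Medium and hormones were renewed after 24 h, so the 48 h arrays followed a second dose.

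CXC chemokines are small secreted proteins that recruit leukocytes. Cxcl1, Cxcl2, Cxcl3 and Cxcl5 carry the ELR motif, bind the receptor Cxcr2 and attract neutrophils, whereas Cxcl12 binds Cxcr4 and Ackr3 and holds progenitor cells and lymphocytes in their niches. Csf1 (M-CSF) keeps macrophages alive and makes monocytes mature, Csf2 (GM-CSF) acts on granulocytes and macrophages, and Csf3 (G-CSF) drives neutrophil production. Fibroblasts and pre-adipocytes make these ligands in response to macrophage cytokines such as TNF and IL-1, largely through the transcription factor NF-kB, and glucocorticoids are known to lower many of them. In the GRCm38.p6 assembly, Cxcl5 (chr5:90759298-90761625), Cxcl3 (chr5:90786101-90788093), Cxcl1 (chr5:90891245-90893121) and Cxcl2 (chr5:90903899-90905938) lie in one cluster on chromosome 5. Cxcl12 lies at chr6:117168535-117181368, Csf1 at chr3:107741048-107760469, Csf2 at chr11:54247270-54249899 and Csf3 at chr11:98700183-98703631.

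Promoters are shown for ligands with a ratio above 0 on every 6 h array (Cxcl1, Cxcl2, Cxcl3 and Csf2). Beside them stand those of Cxcl12 and Csf1, which were not called then. Csf1 differs from the first set in sign by its brightest probe only. Its other probes were also above 0 on every 6 h array, though not called (fitted log2 ratios 0.37 and 0.24, limma adjusted p = 0.00183 and 0.017). The 6 h ratios of Cxcl2 and Cxcl3 have denominators at background. RefSeq promoters (GRCm38.p6) were available here for these 6 of the 8 genes; Cxcl5 and Csf3 are named only. Each line gives the 160 bases before the annotated start, 5′ to 3′ on the strand of the gene, with matches to the kappaB consensus, the family of sites bound by NF-kB, in capitals.
Cxcl1, chr5:90891085-90891244, plus strand: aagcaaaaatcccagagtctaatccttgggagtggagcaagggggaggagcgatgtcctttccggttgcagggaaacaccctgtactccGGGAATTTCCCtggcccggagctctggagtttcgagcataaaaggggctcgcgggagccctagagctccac
Cxcl2, chr5:90903739-90903898, plus strand: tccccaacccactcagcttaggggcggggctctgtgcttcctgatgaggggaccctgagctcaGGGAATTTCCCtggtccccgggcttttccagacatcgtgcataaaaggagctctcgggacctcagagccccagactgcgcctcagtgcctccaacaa
Cxcl3, chr5:90785941-90786100, plus strand: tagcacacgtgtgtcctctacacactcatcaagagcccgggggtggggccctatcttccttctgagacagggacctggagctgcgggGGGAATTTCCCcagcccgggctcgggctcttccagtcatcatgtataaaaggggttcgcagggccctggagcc
Cxcl12, chr6:117168375-117168534, plus strand: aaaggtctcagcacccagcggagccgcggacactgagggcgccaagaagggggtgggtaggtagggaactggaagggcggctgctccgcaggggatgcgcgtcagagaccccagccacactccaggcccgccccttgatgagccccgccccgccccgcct
Csf1, chr3:107760470-107760629, minus strand: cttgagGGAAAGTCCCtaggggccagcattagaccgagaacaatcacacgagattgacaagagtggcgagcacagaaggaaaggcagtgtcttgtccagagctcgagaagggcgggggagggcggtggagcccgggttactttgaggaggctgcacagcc
Csf2, chr11:54249900-54250059, minus strand: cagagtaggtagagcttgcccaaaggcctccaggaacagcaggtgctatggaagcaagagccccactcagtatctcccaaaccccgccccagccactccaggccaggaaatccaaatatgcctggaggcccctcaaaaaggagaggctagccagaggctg
Each window of 250 bases before to 50 bases after the start was searched on both strands. The same 10 letters, GGGAATTTCC, stood at bases -71 to -62 of Cxcl1, -97 to -88 of Cxcl2 and -73 to -64 of Cxcl3, and 29 of the 32851 promoters in the table held them (0.0883%). They overlap a second match to the kappaB consensus on the other strand, shifted by 1 base, which is why 11 letters are in capitals. The Csf1 promoter held a kappaB match on its minus strand, GGGACTTTCC, at bases -154 to -145. The windows of Csf2 and Cxcl12 held none, and 8.46% of all promoters held at least 1 match to the consensus. TGANTCA, the AP-1 motif, was found in none of the 6 windows and in 7.81% of all promoters. TTNNGNAA, the core of C/EBP sites, was found in the windows of Cxcl2 and Csf2 and in 40.7% of all promoters. TATAAA stood in the window of Cxcl3 at bases -30 to -25 and in 13.6% of all promoters.

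Before the results, the treatment labels were checked with genes that glucocorticoids are known to induce. In the co-cultured channel, Zbtb16, a transcription factor strongly induced by glucocorticoids, lay between 8.26 and 8.96 (log2 signal) on the 6 arrays labelled without cortisol and between 10.65 and 11.17 on the 6 labelled with it. In cells alone it was 8.49, 8.71 and 8.34 on the NT arrays and 8.52 on the S array of 48 h, and between 11.26 and 11.45 on the C arrays and on the CS arrays of 6 h and 48 h. The alone channel of 3 arrays went against its label. Zbtb16 was 10.66 on the array labelled S at 6 h, 10.56 on that labelled S at 24 h, and 9.11 on that labelled CS at 24 h. Of the 11 measured glucocorticoid-induced genes, 10 were above the NT level of the same time on the array labelled S at 6 h (median log2 difference 0.58) and 9 on that labelled S at 24 h (median 0.47), while 3 of 10 were above it on that labelled CS at 24 h (median -0.28). On the S array of 48 h, 8 of 11 were above the NT level, with a median of 0.17. These 3 arrays were kept under their labels, and results that rest on them are given with and without them.

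**Figure D1:**
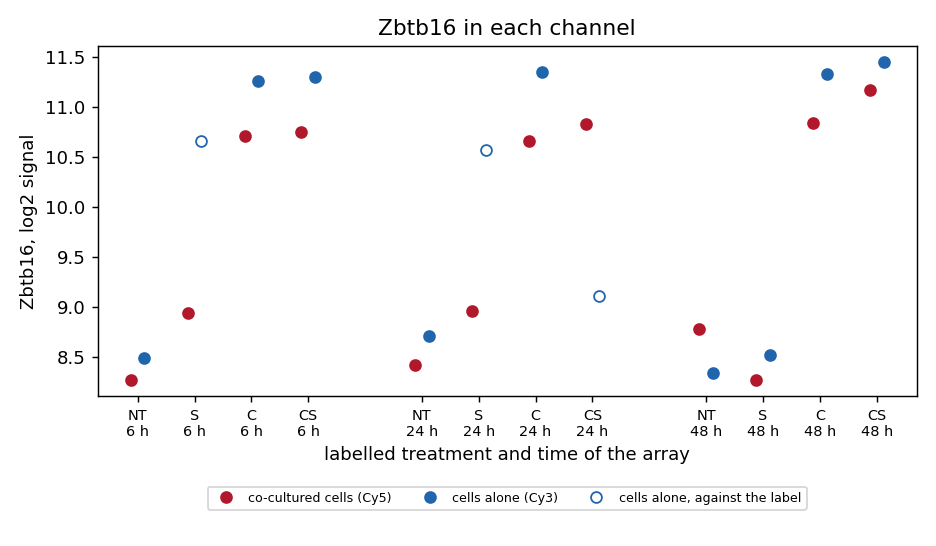
Log2 signal of Zbtb16 in the co-cultured (Cy5, red) and alone (Cy3, blue) channel of each of the 12 arrays, by labelled treatment and time, 1 point per channel. Open circles mark the alone channel of the S arrays of 6 h (10.66) and 24 h (10.56) and of the CS array of 24 h (9.11), which lay away from the level of the same treatment on the other arrays.

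Between 18050 and 21116 probes were well above background in Cy3 and between 19673 and 22638 in Cy5. Log ratios of arrays of one time correlated with a Pearson r of 0.75 to 0.92 at 6 h, 0.60 to 0.85 at 24 h and 0.88 to 0.97 at 48 h. Of the 12 pre-adipocyte and fibroblast markers, 9 were detected on every array in each channel, and of the 8 adipocyte markers 2 were. Of 19 listed macrophage markers, 18 were on the array and 14 were tested, 7 rose at 6 h, 2 at 24 h, and 6 rose and 1 fell at 48 h. Over all genes, 4.41%, 4.7% and 14.6% were called higher at these times, and 16.9% lower at 48 h. The log2 of the summed signal of the 14 tested macrophage markers was 13.96 to 14.23 in Cy5 and 13.00 to 13.48 in Cy3 at 6 h. It was 13.62 to 14.04 and 13.03 to 13.72 at 24 h, and 13.65 to 14.26 and 12.98 to 13.60 at 48 h. Of the 18, 11 were well above background on all 12 arrays in Cy5 and 8 in Cy3, among them Csf1r, Itgam, Cd14 and Mpeg1 in both channels. Ptprc, the pan-leukocyte antigen CD45, and Spi1, the transcription factor PU.1, were detected on 1 array in each channel, Laptm5 on 0 in Cy5 and 1 in Cy3, Cd52 on 1 and 2, and Adgre1, a macrophage surface receptor, on 4 and 1. Tyrobp was detected on 6 arrays in Cy5 and 0 in Cy3, and Lyz2 on 8 and 7. Fcer1g, Ctss and Coro1a were each detected on 12 arrays in Cy5 and 10 in Cy3. The part of macrophage RNA in the ligand ratios was not tested.

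The first comparison asked how far co-culture with macrophages moved each ligand. At 6 h, 4 of the 6 ligands detected in both channels were called higher in co-cultured cells, Csf3, 3.79-fold, Cxcl1, 3.26-fold, Csf2, 3.02-fold, and Cxcl5, 2.84-fold. At 24 h Csf2, Csf3 and Cxcl1 were past the threshold and at 48 h Csf3. Cxcl2 and Cxcl3, not above background in cells alone, also passed the test at 6 h and Cxcl2 at 48 h, but their 6 h ratios are bounds below 1.5-fold, and the 48 h bound of Cxcl2 was 1.60-fold. No ligand was called lower at any time. Cxcl12 at 24 h and the brightest Csf1 probe at 48 h were lower with adjusted p-values under 0.05 but short of the fold threshold. The other Csf1 probes were called higher at 24 h and 48 h in a fit by probe. A ratio was called where limma's moderated test gave an adjusted p under 0.05, over all genes tested, and the fitted ratio was at least 1.5-fold. Of the 13829 genes, 4.41% were called higher and 5.27% lower at 6 h. These shares were 4.7% and 3.7% at 24 h and 14.6% and 16.9% at 48 h. Without the 3 arrays in doubt, 4.4%, 4.44% and 14.6% of genes were called higher at 6, 24 and 48 h. The median log2 ratio of the 8 ligands was 1.05, 0.52 and 0.15 at the 3 times, beside -0.02, 0.00 and -0.01 for all genes, and with Cxcl2 and Cxcl3 at their bounds it was 0.89, 0.35 and 0.15. In RNA taken from a whole well of cells, more RNA per cell and a larger share of cells that make it cannot be told apart.

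**Figure D2:**
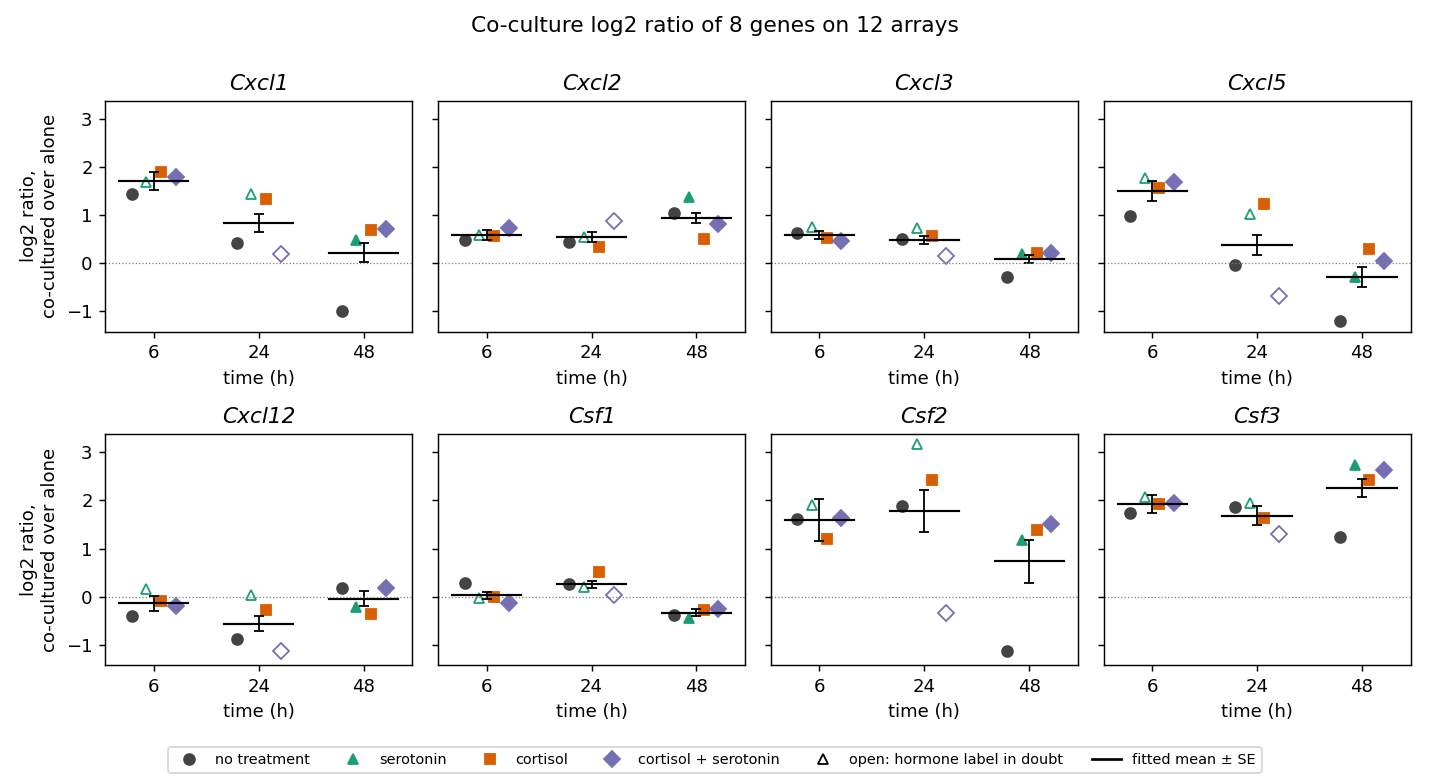
Log2 ratio of co-cultured (Cy5) over alone (Cy3) cells for the 8 ligands at 6, 24 and 48 h, 1 point per array, with symbols for the 4 treatments and open symbols for the 3 arrays whose alone channel went against its label. Bars give the fitted mean ± SE; at 48 h the NT points of Cxcl1 (-1.0), Cxcl5 (-1.21) and Csf2 (-1.14) lay below those of all 3 hormone arrays.

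Cxcl1, a neutrophil attractant, had a ratio that declined with time. Its log2 ratio on the NT, S, C and CS arrays was 1.44, 1.69, 1.89 and 1.79 at 6 h. At 24 h it was 0.41, 1.43, 1.33 and 0.19, and at 48 h -1.0, 0.48, 0.70 and 0.70. The 4 arrays of 6 h all lay above the 8 later arrays, and at 48 h the NT array alone was below 0. The fitted log2 ratio was 1.70 ± 0.19 (SE, n = 4 arrays; limma adjusted p = 5.22e-05) at 6 h, 0.84 ± 0.19 (adjusted p = 0.00367) at 24 h and 0.22 ± 0.19 (adjusted p = 0.311) at 48 h. Without the 3 arrays in doubt it was 1.80, 1.12 and 0.22, and the first 2 of these passed. The ratio fell by 1.48 on the log2 scale from 6 h to 48 h (SE 0.27, adjusted p = 6.96e-04), a change in which 12.3% of all genes were called lower. Without the 3 arrays it fell by 1.58 (adjusted p = 0.00109), with 12.1% of genes called lower.

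Cxcl5, also a ligand of Cxcr2, had a ratio that fell further. On the NT, S, C and CS arrays its log2 ratio was 0.99, 1.77, 1.57 and 1.69 at 6 h, -0.03, 1.02, 1.22 and -0.68 at 24 h, and -1.21, -0.29, 0.30 and 0.04 at 48 h. At 24 h the NT array and the array labelled CS lay below those labelled S and C by more than 1 log2 unit, and the CS array carries 1 of the doubted labels. The fit gave 1.5 ± 0.21 (adjusted p = 2.00e-04) at 6 h, 0.38 ± 0.21 (adjusted p = 0.153) at 24 h and -0.29 ± 0.21 (adjusted p = 0.236) at 48 h. Without the 3 doubted arrays the 24 h value was 0.74 ± 0.16 and passed the test (adjusted p = 0.0194), as it did without the CS array of 24 h alone (0.82, adjusted p = 4.64e-04) and with median centring in place of loess (1.45, adjusted p = 3.54e-06). The fall from 6 h to 48 h was called with all arrays (-1.79 ± 0.30, adjusted p = 4.07e-04) and without those 3 (-1.70 ± 0.16, adjusted p = 2.13e-04). A fall from 6 h to 24 h (-1.12, adjusted p = 0.0428, with 0.673% of all genes called lower) was lost without them (-0.67, adjusted p = 0.232, with 0 genes called lower). It was also lost without any single one of the 4 arrays of 6 h, the S or C array of 24 h or the C array of 48 h, the values of Cxcl5 then running from -1.34 to -0.94 with adjusted p-values of 0.0572 to 0.145.

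Cxcl2 and Cxcl3, the 2 other ELR ligands, were dim. Cxcl2 was well above background on 8 of 12 arrays in co-cultured cells and on 0 in cells alone, and Cxcl3 on 7 and 1. For them only an approximate bound can be given. It sets the mean Cxcl2 or Cxcl3 signal of co-cultured cells against a Cy3 level. On each array that level was the higher of the dimmest detected Cy3 probe and the dim probe itself. The bound for Cxcl2 was 1.17-fold at 6 h, 1.08-fold at 24 h and 1.60-fold at 48 h, with 2, 3 and 3 of 4 Cy5 arrays above background. The measured Cxcl2 ratio, whose denominator is at background, was above 0 on all 12 arrays, with log2 values of 0.48 to 0.72 at 6 h, 0.34 to 0.88 at 24 h and 0.50 to 1.37 at 48 h, and it passed limma's test at each time (adjusted p = 7.29e-04, 0.00118 and 7.29e-06). For Cxcl3 the bound was 1.20-fold at 6 h and 1.24-fold at 24 h, with 2 and 4 of 4 Cy5 arrays above background. Its measured ratio passed limma's test at both times (adjusted p = 2.79e-04 and 9.86e-04). Without the 3 doubted arrays its log2 ratio was 0.57 at 6 h, short of the fold threshold, and 0.59 at 24 h, past it. At 48 h the log2 ratio of Cxcl3 was -0.28 on the NT array, where its Cy3 probe was detected, and 0.19, 0.21 and 0.22 on the others (adjusted p = 0.398). Each bound is a mean over 4 arrays, and some arrays were not above background in either channel. For Cxcl2 these were the NT and S arrays of 6 h, the S array of 24 h and the C array of 48 h. For Cxcl3 they were the NT and C arrays of 6 h. On the CS array of 48 h the undetected Cy3 signal of Cxcl2 (6.35) lay above the dimmest detected probe (5.94). The bounds are therefore no strict limits. Whether the ratios of these dim probes reach 1.5-fold was not settled.

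Cxcl12, which is made at high level by stromal cells, was not called at any time. Its brighter probe had log2 ratios of -0.41, 0.16, -0.10 and -0.20 at 6 h, -0.88, 0.03, -0.27 and -1.13 at 24 h, and 0.18, -0.21, -0.35 and 0.19 at 48 h. The 24 h arrays were lowest for NT and for the array labelled CS. The fitted 24 h value of Cxcl12 was -0.56 ± 0.16 (adjusted p = 0.0117), 1.48-fold lower and short of the fold threshold, and its interval of 95% ran from -0.91 to -0.22. The second Cxcl12 probe, whose accession is another transcript, was at -0.06 ± 0.18 (adjusted p = 0.811) there. Leaving out arrays of 24 h moved the brighter Cxcl12 probe both ways, to -0.74 (adjusted p = 0.00970) without S and -0.70 (adjusted p = 0.0143) without C, both then called, and to -0.46 (adjusted p = 0.0776) without NT and -0.34 (adjusted p = 0.0998) without CS. With median centring in place of loess the 24 h value of Cxcl12 was 0.22 (adjusted p = 0.198), where the median over all genes was 0.39. In the co-cultured channel the second Cxcl12 probe was called lower from 6 h to 24 h (-0.62 ± 0.09, adjusted p = 0.00107) and from 6 h to 48 h (-0.78 ± 0.09, adjusted p = 5.00e-05), and the brighter one was not.

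Csf3, the neutrophil growth factor, was higher in co-cultured cells on all 12 arrays. The log2 ratio was 1.75, 2.06, 1.93 and 1.95 at 6 h, 1.86, 1.96, 1.63 and 1.30 at 24 h, and 1.24, 2.74, 2.42 and 2.63 at 48 h on the NT, S, C and CS arrays. The 4 arrays of 6 h lay close together, and at 48 h the NT array lay more than 1 log2 unit below each hormone array. The fitted ratio was 1.92 ± 0.19 (3.79-fold, adjusted p = 3.27e-05), 1.69 ± 0.19 (3.22-fold, adjusted p = 5.88e-05) and 2.26 ± 0.19 (4.78-fold, adjusted p = 8.65e-07). Without the 3 doubted arrays the values were 2.04, 2.06 and 2.26, all called. The change of Csf3 from 6 h to 48 h was 0.34 (interval of 95% from -0.25 to 0.93, adjusted p = 0.310), and without the NT array of 48 h it was 0.68 and called (adjusted p = 0.0157).

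Csf2, which acts on macrophages and granulocytes, had the widest range of ratios among the 8 ligands. Its log2 ratio was 1.62, 1.91, 1.20 and 1.64 at 6 h, 1.88, 3.16, 2.42 and -0.34 at 24 h, and -1.14, 1.19, 1.39 and 1.5 at 48 h. Its probe is spotted 10 times on each array, and the SD of the log2 ratio over the usable spots was 0.05 to 0.13 within an array. At 24 h the highest array (labelled S) and the lowest (labelled CS) are 2 of the 3 in doubt, and at 48 h the NT array stood alone below 0. The fit gave 1.59 ± 0.44 (adjusted p = 0.0112) at 6 h, 1.78 ± 0.44 (adjusted p = 0.00671) at 24 h and 0.74 ± 0.44 (adjusted p = 0.156) at 48 h. Without the 3 arrays these were 1.64 ± 0.38, 2.57 ± 0.48 and 0.74 ± 0.29, and the 48 h value then passed the test (adjusted p = 0.0497). Without the NT array of 48 h the value at that time was 1.38 (adjusted p = 0.0182), and with array weights 1.07 (adjusted p = 0.0444). The 6 h call did not survive leaving out the NT or the CS array of 6 h (1.29, adjusted p = 0.0801, and 1.35, adjusted p = 0.0772), nor the 24 h call leaving out the NT or the S array of 24 h (1.44, adjusted p = 0.0549, and 1.45, adjusted p = 0.0597).

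Csf1, the survival factor of macrophages, gave different answers by probe. The brightest probe, with 10 spots and a spot SD of 0.04 to 0.12, had log2 ratios of 0.28, -0.03, -0.02 and -0.13 at 6 h, 0.27, 0.19, 0.51 and 0.04 at 24 h, and -0.39, -0.44, -0.27 and -0.26 at 48 h. All 4 arrays of 48 h lay below the other 8. The fitted change from 24 h to 48 h was -0.59 ± 0.10 (adjusted p = 5.44e-04, where 11.7% of all genes were called lower), and it fell short of the fold threshold without the C array of 24 h (-0.51) or the NT (-0.53), S or C array of 48 h (-0.58 each). The 2 other probes, single spots designed to another transcript accession of Csf1, were above 0 on all 12 arrays. At 48 h they read 0.56, 1.05, 0.97 and 0.85, and 0.79, 1.17, 1.04 and 0.94. Fitted over all 23017 probes that passed the filter, an analysis added after seeing the data, their 48 h ratios were 0.86 ± 0.07 (adjusted p = 1.14e-06) and 0.98 ± 0.07 (adjusted p = 2.67e-07), against -0.34 ± 0.07 (adjusted p = 0.00120) for the brightest probe. The 24 h ratios of the 3 probes were 0.25, 0.75 and 0.59, and the latter 2 were called higher (limma adjusted p = 3.15e-05 and 8.88e-05). The probes of Csf1 thus parted in size at 24 h and in direction at 48 h. The brightest Csf1 probe also turned on the normalization, its log2 ratio being 1.55 (adjusted p = 1.14e-08) at 6 h and 1.77 (adjusted p = 1.63e-09) at 24 h with median centring in place of loess, where the median over all genes was 0.23 and 0.39.

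**Figure D3:**
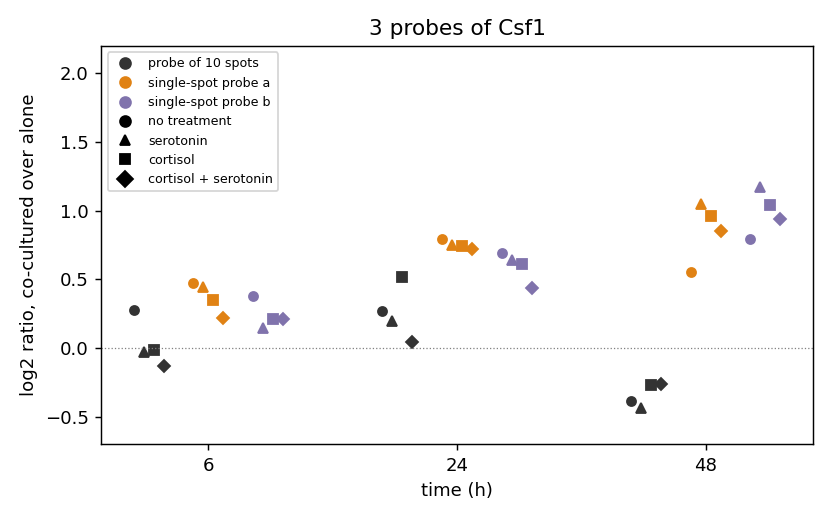
Log2 ratio of co-cultured over alone cells for the 3 Csf1 probes at 6, 24 and 48 h, 1 point per array, coloured by probe and shaped by treatment. At 48 h the probe of 10 spots lay between -0.44 and -0.26 on the 4 arrays, and the single-spot probes a and b lay between 0.56 and 1.17.

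The channels were also read apart, after quantile scaling of the mean intensities. In cells alone, 3 ligands rose with time. Cxcl1 rose by 1.01 ± 0.22 (log2, adjusted p = 0.00790) from 6 h to 24 h, Cxcl5 by 1.11 ± 0.21 (adjusted p = 0.00413) and Csf3 by 0.80 ± 0.14 (adjusted p = 0.00303), with 5.33% of all genes called higher. From 6 h to 48 h the same 3 ligands rose, Cxcl5 by 1.73 ± 0.21 (adjusted p = 4.01e-04), Cxcl1 by 0.83 ± 0.22 (adjusted p = 0.0166) and Csf3 by 0.62 ± 0.14 (adjusted p = 0.00873), with 7.56% of all genes called higher. Leaving out the doubted arrays kept the 24 h calls of Cxcl5 and Csf3 and lost that of Cxcl1 (0.90, adjusted p = 0.0586), with 3.69% of genes called higher. Between 6 h and 48 h it kept Cxcl5 (1.64) and Cxcl1 (0.84) and brought Csf3 under the fold threshold (0.52), with 6.76% of genes called higher. The 48 h call of Cxcl1 in cells alone was also lost without the NT or CS array of 6 h (0.71 each) or the S (0.76) or C (0.78) array of 48 h, and that of Csf3 without the NT array of 6 h (0.58) or the S array of 48 h (0.47). Both Csf3 calls in cells alone were lost with local backgrounds kept as recorded (0.46, adjusted p = 0.165, from 6 h to 24 h, and 0.28, adjusted p = 0.382, from 6 h to 48 h). Array weights lost both Cxcl1 calls (0.65, adjusted p = 0.0843, and 0.72, adjusted p = 0.0590) and the 48 h call of Csf3 (0.52, adjusted p = 0.0616), and quantile scaling of all 24 channels brought the latter under the fold threshold (0.57). The rise of Cxcl5 in cells alone was called under each of these settings.

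In co-cultured cells, Cxcl5 stayed within a narrow band, between 14.54 and 15.48 over all 12 arrays, against 13.42 to 15.75 in cells alone. From 6 h to 48 h its fitted change in co-cultured cells was -0.06 ± 0.15 (limma adjusted p = 0.756). Cxcl1 in co-cultured cells was 15.24, 15.34, 15.23 and 15.00 on the NT, S, C and CS arrays of 6 h and 13.87, 14.91, 14.67 and 14.73 on those of 48 h. All arrays of 48 h thus lay below all of 6 h, and the fit gave -0.66 ± 0.21 (adjusted p = 0.0192, 14.4% of all genes called lower), which did not pass without the 3 arrays (-0.73, adjusted p = 0.0648), without the NT (-0.59) or C (-0.61) array of 6 h, without the NT array of 48 h (-0.37), or with array weights (-0.52). The brightest Csf1 probe fell by 0.92 ± 0.08 (adjusted p = 9.13e-06) over the same span, while 1 of the other Csf1 probes rose by 0.96 ± 0.11 (adjusted p = 5.53e-05). Csf3 rose by 0.96 ± 0.30 (adjusted p = 0.0188, 14.3% of all genes called higher) and did not pass without the doubted arrays (0.74, adjusted p = 0.0620) or without the S array of 6 h (0.87), the S array of 48 h (0.71) or the CS array of 48 h (0.80). Csf2 in co-cultured cells rose by 1.5 ± 0.23 (adjusted p = 0.00113) from 6 h to 24 h, with 5.16% of all genes called higher, and fell again by 1.61 ± 0.23 (adjusted p = 2.02e-04) from 24 h to 48 h, with 14.5% called lower. Without the 3 arrays in doubt both Csf2 changes were still called (1.46 and -1.85), with 3.6% of genes called higher from 6 h to 24 h and 14.6% lower from 24 h to 48 h.

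**Figure D4:**
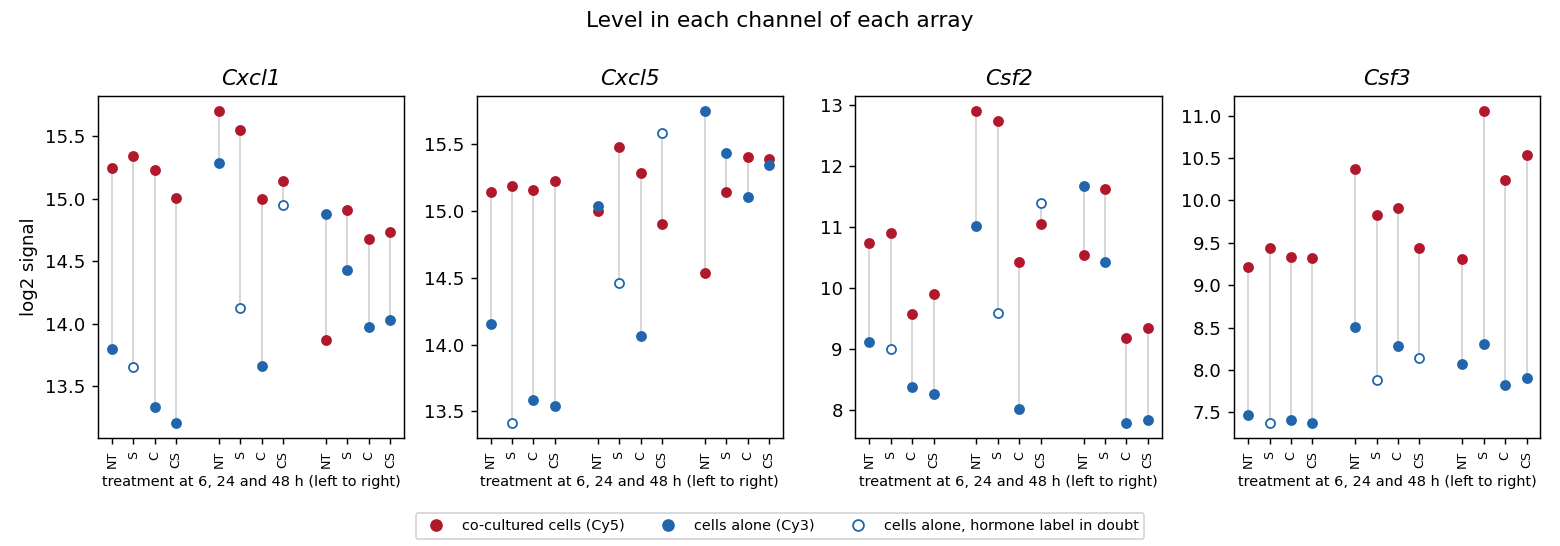
Log2 signal of Cxcl1, Cxcl5, Csf2 and Csf3 in co-cultured (Cy5, red) and alone (Cy3, blue) cells on each array, NT, S, C and CS from left to right within 6, 24 and 48 h; a grey line joins the channels of one array and open circles mark the alone channels in doubt. Csf2 in co-cultured cells was lower on the C and CS arrays than on the NT and S arrays of every time, and the alone channel of Cxcl5 rose from 13.42 to 14.16 at 6 h to 15.10 to 15.75 at 48 h.

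The hormone comparison was made within each channel and in the ratio. In co-cultured cells Csf2 was called lower with cortisol and with both hormones. The second Cxcl12 probe was called lower with cortisol when fitted by probe (-0.59 ± 0.10, limma adjusted p = 0.0229). The share of all probes called in that fit is not given here. The brighter Cxcl12 probe, which stood for the gene, had the same sign and was not called (-0.32 ± 0.10, limma adjusted p = 0.135). The log2 signal of Csf2 in co-cultured cells was 10.75 (NT) and 10.91 (S) against 9.58 (C) and 9.91 (CS) at 6 h. It was 12.90 and 12.75 against 10.44 and 11.06 at 24 h, and 10.55 and 11.62 against 9.18 and 9.34 at 48 h. At each time both arrays with cortisol lay below both without it. The fitted difference from NT was -1.67 ± 0.27 with cortisol (3.17-fold lower; interval of 95% from -2.26 to -1.07; adjusted p = 0.0143) and -1.30 ± 0.27 with both hormones (2.45-fold lower; interval from -1.89 to -0.70; adjusted p = 0.0218). Over all genes 0.839% were called lower with cortisol and 0.984% with both hormones. Without the 3 doubted arrays the sizes were -1.67 and -1.22 and neither passed (adjusted p = 0.0584 and 0.139), with 0.0651% and 0.00723% of genes called lower. Zbtb16 in the co-cultured channel of those arrays was 8.94 (S, 6 h), 8.96 (S, 24 h) and 10.83 (CS, 24 h), against 8.26 to 8.78 on the other cortisol-free arrays. The cortisol call was also lost without the C array of 24 h (-1.44, adjusted p = 0.0843) or of 48 h (-1.68, adjusted p = 0.0604), and that of both hormones without the NT or CS array of 24 h (adjusted p = 0.0704 and 0.0883) or the CS array of 48 h (adjusted p = 0.0693).

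In cells alone, Csf2 was 9.12 (NT), 9.0 (S), 8.38 (C) and 8.27 (CS) at 6 h, 11.03, 9.59, 8.02 and 11.40 at 24 h, and 11.68, 10.43, 7.79 and 7.84 at 48 h. The array labelled CS at 24 h, where Zbtb16 was near the untreated level, had a Csf2 level above that of NT, and the array labelled S at 24 h lay between NT and C. The fitted cortisol difference was -2.55 ± 0.77 (adjusted p = 0.139) with all arrays and -2.55 ± 0.57 (adjusted p = 0.0975) without the doubted ones. For both hormones it was -1.44 ± 0.77 (adjusted p = 0.327) and -2.46 ± 0.67 (adjusted p = 0.166). Cxcl1 in cells alone was at -0.99 ± 0.26 with cortisol (adjusted p = 0.0966) and Cxcl5 at -0.73 ± 0.25 (adjusted p = 0.171), and leaving out the doubted arrays brought Cxcl5 past the threshold (-0.73 ± 0.12, adjusted p = 0.0445, with 0.521% of genes called lower). With the CS array of 24 h alone left out, Cxcl1, Cxcl5 and Csf2 were all called lower with cortisol in cells alone (-0.99, adjusted p = 0.0365, -0.73, adjusted p = 0.0250, and -2.55, adjusted p = 0.0459). With all arrays, 0.0868% of genes were called lower there with cortisol and 0.297% with both hormones. The share without the CS array of 24 h alone is not given here.

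For serotonin limma called 0 genes, and so 0 ligands, in either channel, with 903 genes and 1 ligand at an unadjusted p under 0.05 in co-cultured cells and 1120 genes and 1 ligand in cells alone. The serotonin difference in co-cultured cells was 0.36 for Csf2 (interval from -0.23 to 0.96), 0.48 for Csf3 (from -0.29 to 1.25), 0.33 for Cxcl1 (from -0.20 to 0.86) and 0.38 for Cxcl5 (from -0.01 to 0.77), and each interval reached past a 1.5-fold rise. The S arrays of 6 h and 24 h are among the 3 in doubt. Without those 3, the difference rested on the S array of 48 h only. It was then 0.97 for Csf2, 1.26 for Csf3, 0.54 for Cxcl1 and 0.31 for Cxcl5. In the co-culture ratio limma called 0 genes for any hormone, while 1351, 1809 and 1266 of 13829 genes had an unadjusted p under 0.05 for cortisol, serotonin and both hormones, among them 2, 2 and 0 ligands. The ratio of Cxcl1 was higher by 1.02 ± 0.31 with cortisol (interval from 0.34 to 1.70; adjusted p = 0.435) and by 0.91 ± 0.31 with serotonin (from 0.24 to 1.59; adjusted p = 0.308). The ratio of Cxcl5 was higher by 1.12 ± 0.34 (from 0.36 to 1.88; adjusted p = 0.435) and 0.92 ± 0.34 (from 0.16 to 1.68; adjusted p = 0.333). Neither survived the adjustment over all genes. Without the 3 doubted arrays the serotonin difference in the ratio was 1.03 for Cxcl1 and 0.71 for Cxcl5, from the S array of 48 h only.

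The remaining genes of the pathway were taken from lists that include the receptors, other CXC ligands, related growth factors, cytokines that induce the ligands, regulators of NF-kB and C/EBP, and factors that degrade cytokine mRNA. Beside the counts below, 4.41%, 4.7% and 14.6% of all genes were called higher at 6, 24 and 48 h, and 5.27%, 3.7% and 16.9% lower. Of the 14 receptors, 8 were measured, and 2 rose at 6 h, 1 at 24 h and 4 at 48 h. Cxcr2 and Cxcr4, the receptors of the ELR ligands and of Cxcl12, were below the filter. Ackr3, which scavenges Cxcl12, was higher at 6 h (0.88 ± 0.11, adjusted p = 8.69e-05), 24 h (0.93 ± 0.11, adjusted p = 6.54e-05) and 48 h (0.67 ± 0.11, adjusted p = 1.39e-04). Csf1r, the receptor of Csf1, was higher at 48 h (1.11 ± 0.11, adjusted p = 2.62e-06), as were Itgam, a leukocyte integrin chain, and Csf2ra, the alpha chain of the Csf2 receptor. Csf1r and Itgam are also on the list of macrophage markers, whose summed level is given above.

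Of 6 other CXC ligands measured, 1 rose at 6 h, 1 rose and 2 fell at 24 h, and 4 fell at 48 h. Cxcl10, an interferon-induced T cell attractant, was at -1.47 ± 0.33 at 24 h (adjusted p = 0.00343) and -1.37 ± 0.33 at 48 h (adjusted p = 0.00262). Cxcl9, which shares its receptor Cxcr3, was at -0.99 ± 0.17 at 48 h (adjusted p = 3.37e-04), and Cxcl13 (-0.85) and Pf4 (-0.87), chemokines of B cells and platelets, fell there too. Cxcl16, a membrane-bound ligand of Cxcr6, was higher at 6 h (0.79 ± 0.15, adjusted p = 0.00111) and 24 h (1.01 ± 0.15, adjusted p = 2.78e-04). The other CXC ligands that were called at 48 h were thus all lower, with a median over the 6 of -0.86. At that time 16.9% of all genes were called lower and 14.6% higher.

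Of the 5 measured growth factors, 3 rose and 1 fell at 6 h. Il6 was at 1.63 ± 0.32 at 6 h (adjusted p = 0.00154), and Lif, a cytokine of the same family, was higher at all 3 times, at 1.55 ± 0.16, 1.33 ± 0.16 and 1.44 ± 0.16. Vegfa, the endothelial growth factor, reached 1.25 ± 0.07 at 48 h (adjusted p = 3.52e-08), and Kitl, the stem cell factor, was lower at 6 h and 48 h (-0.72 and -0.83). Among the inducing cytokines, Tnf and Il1b were below the filter. Il1a was higher at 6 h (1.95 ± 0.29, adjusted p = 2.68e-04), 24 h (1.49 ± 0.29, adjusted p = 0.00152) and 48 h (1.65 ± 0.29, adjusted p = 3.01e-04), Tnfsf11, the osteoclast factor RANKL, at 48 h (0.66 ± 0.11), and Il18 was lower at 48 h (-2.06 ± 0.10, adjusted p = 2.78e-08).

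Among 12 measured NF-kB and C/EBP regulators, 7 rose at 6 h, 3 at 24 h and 5 at 48 h, and 0 fell. The shares of all genes called higher at those times were 4.41%, 4.7% and 14.6%. Tnfaip3 (A20), a feedback inhibitor of NF-kB, was at 1.99 ± 0.14 (adjusted p = 1.12e-05), 1.71 ± 0.14 (adjusted p = 1.17e-05) and 2.87 ± 0.14 (adjusted p = 2.79e-08) at the 3 times. Cebpb, a transcription factor of inflammation and of early adipogenesis, reached 1.95 ± 0.08 at 48 h (adjusted p = 1.62e-08), Nfkbiz was at 1.34 ± 0.10 at 24 h (adjusted p = 6.22e-06) and Nfkbia, the inhibitor of NF-kB, at 1.20 ± 0.09 at 48 h (adjusted p = 5.36e-07). Of 6 mRNA decay factors, Zfp36l1 was called higher at 6 h (0.73 ± 0.10, adjusted p = 2.71e-04) and none at 24 h or 48 h. Leaving out the 3 doubted arrays changed the counts of these 6 lists by at most 1 gene at any time.

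**Figure D5:**
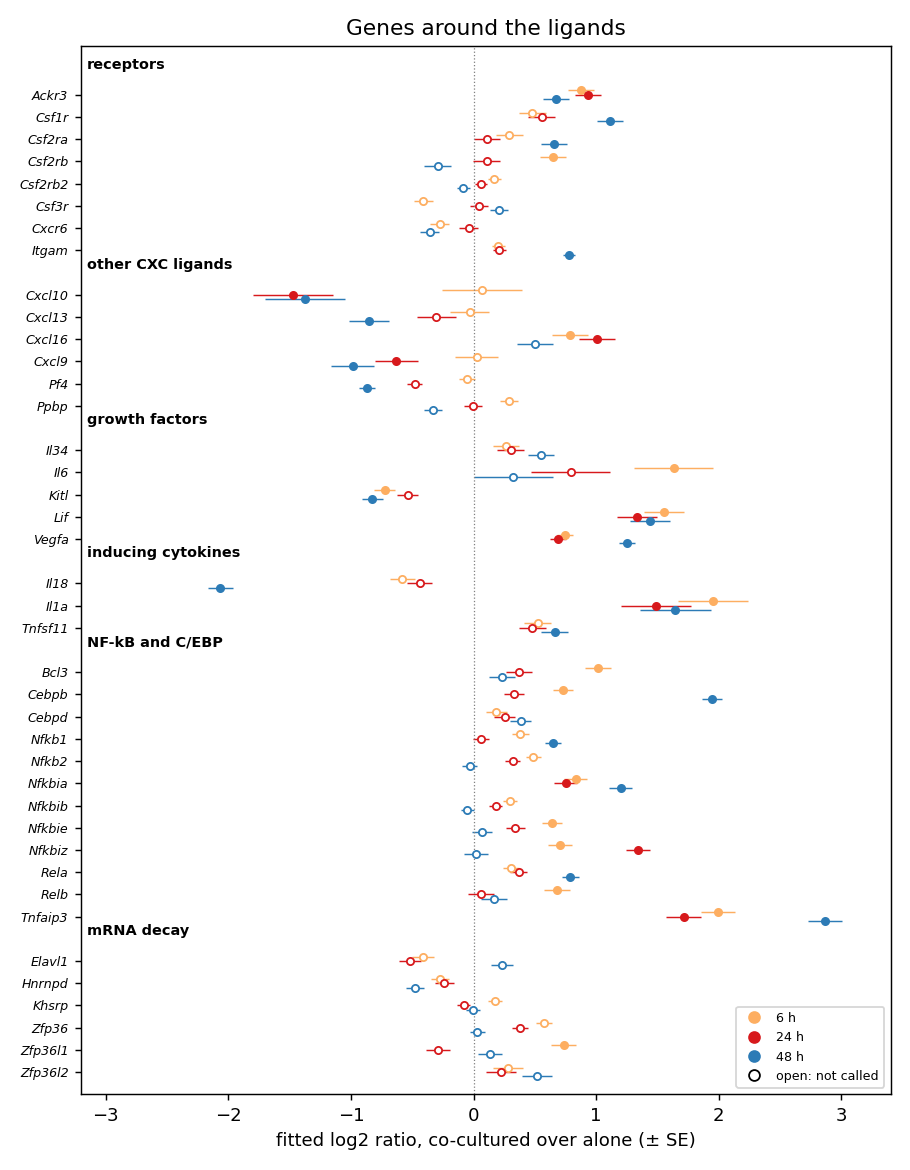
Fitted log2 ratio of co-cultured over alone cells, ± SE, at 6, 24 and 48 h for the measured genes of 6 lists, filled where called (adjusted p under 0.05 and at least 1.5-fold) and open otherwise. Tnfaip3 lay furthest to the right at 48 h (2.87) and Il18 furthest to the left (-2.06).

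The genes whose log2 ratio ran most like each ligand over the 12 arrays were looked up among 12377 named genes measured on all of them, as a description in which time, slide and treatment are shared by all points. Cxcl1 ran closest to Cd14 (Pearson r = 0.97), the co-receptor for bacterial lipopolysaccharide, and to Slfn2 (0.95). For Cxcl3 the closest were Nfkb2 (0.96), a subunit of NF-kB, and Cdc42ep5 (0.94), and for Cxcl5 they were Ptgir (0.96), the prostacyclin receptor, and Phex (0.96). Csf2 ran closest to Cxcl16 (0.92) and Fmn2 (0.91), Csf3 to Hic2 (0.95) and Pim3 (0.95), and Csf1 to Ercc6 (0.94) and Prokr1 (0.94). Cxcl2 ran closest to Plcg2 (0.93) and Cr2 (0.93), and Cxcl12 to Iglon5 (0.90) and Arhgap44 (0.89). Among the ligands themselves, Cxcl1 and Cxcl5 ran together most closely (0.96). The ratios of Cxcl2 and Cxcl3 have a denominator at background on 12 and 11 of the arrays, which limits what their correlations describe.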

How the data were processed

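RNA of the 12 conditions was hybridised to 12 dual-colour Agilent mouse arrays. Feature Extraction was run by the authors (version 10.7.3.1 per the file headers; the submitters' processing notes list 10.5.1.1). Per spot, the deposited files give linear intensity in each channel and Cy5 over Cy3 as a log10 ratio, which the authors' value table repeats to within 0.00499. Median signals were background-corrected (normexp, offset 50) and loess-normalized in limma 3.58.1 (R 4.3.3, statmod 1.5.0). Single channels were scaled by quantiles of mean intensity. Of 39429 probes, 27508 were named through RefSeq accessions. Probes well above background on at least 3 arrays were kept (in either channel, on most usable spots) and the brightest stood for a gene. Outlier spots, and spots whose local background exceeded 5 times the array median, were left out. Time and treatment were fitted additively (6 residual degrees of freedom) with trended moderated variances and Benjamini-Hochberg adjustment. Named genes were all 8 ligands, up to 4 called genes of each list by size, and for each ligand the 2 genes most like it. Members and lists were chosen with earlier results of these data known. Sequences came from RefSeq and were searched in Python 3.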

Additional observations from a re-analysis of the deposited data

Results flagged for a closer look

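On 3 of the 24 sets of 4 arrays tested for a value far from the others, the NT array of 48 h stood apart. The log2 ratio there was -1.0 for Cxcl1, against 0.48 to 0.70 on the other 3 arrays, -0.28 for Cxcl3, against 0.19 to 0.22, and -1.14 for Csf2, against 1.19 to 1.5. The untreated array of that time is 1 array, and Zbtb16 matched the labels of the hormone arrays beside it in both channels. Chance gives a value that far from the others in about 5% of sets where arrays are alike and sets are independent. Here the arrays of a set differ in treatment, and the ratios of Cxcl1, Cxcl3 and Csf2 ran together (Pearson r of 0.74 to 0.87). The 5% is therefore not a fair comparison.

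The co-culture ratio differed between times for 3 ligands by a test of the difference itself. The change between 6 h and 48 h was -1.48 for Cxcl1 and -1.79 for Cxcl5, that between 6 h and 24 h was -1.12 for Cxcl5, and that between 24 h and 48 h was -0.594 for the brightest Csf1 probe. Time and slide cannot be told apart in these differences.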

How the results depend on the processing

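With each array left out in turn, the number of ligands called was 3 to 5 for the ratio at 24 h, 0 to 2 for its change from 6 h to 24 h, 1 to 4 from 24 h to 48 h, 0 to 1 for cortisol and for both hormones in co-cultured cells, 0 to 3 for cortisol and 1 to 4 for the change from 6 h to 48 h in cells alone. For the 24 h ratio, 3 ligands with the settings used, it was 5 with Feature Extraction's processed signals, an offset of 16, median centring, the deposited log ratios, without the doubted arrays and without these and the NT array of 48 h (a setting added after seeing the data), and 7 with no fold threshold. For the 48 h ratio, 2 ligands, it was 1 where every array had to be above background and at a 2-fold threshold. The single call from 6 h to 24 h dropped to 0 under all of processed signals, offset 16, recorded local backgrounds, median centring, deposited ratios, no filter, array weights, time alone and the omission of the doubted arrays, with or without the NT array of 48 h. From 24 h to 48 h the count of 1 became 0 with processed signals, scale normalization, deposited ratios, the mean of a gene's probes and the 2-fold threshold, 2 with offset 16 and array weights, 3 with no fold threshold, and 4 with median centring and without the doubted arrays. From 6 h to 48 h the count of 2 became 5 with median centring and 4 with no fold threshold. In co-cultured cells, the 3 ligands called from 6 h to 48 h became 1 without the doubted arrays and 0 at 2-fold, the 1 from 6 h to 24 h became 2 with no fold threshold, and cortisol and both hormones went from 1 to 0 without the doubted arrays. In cells alone, cortisol went from 0 to 1 with array weights and without the doubted arrays, and the 3 from 6 h to 48 h became 1 at 2-fold. Shares of all genes called are given above only for the settings used and, in part, without the doubted arrays. Changes in these counts are therefore not read as results about the ligands. Median centring in place of loess moved the median over all genes to 0.23, 0.39 and -0.16 at 6, 24 and 48 h. With it the change of Cxcl12 from 6 h to 48 h reversed to -0.65. Averaging the probes of Csf1 reversed its change from 6 h to 48 h in co-cultured cells to 0.11. The cause was not tested. Of the other values of single ligands under an alternative, 3484 kept direction and call, 81 lost the call and 75 gained one. A fit on mean spot signals was not run, and a slide block could not be fitted because each slide held 1 time. Arrays of the 3 times were matched by treatment, which was a term of the fit, and with time alone the counts at 6, 24 and 48 h stayed at 6, 3 and 2, counts that take Cxcl2 and Cxcl3 by their measured ratios. For Cxcl2 and Cxcl3, signal over background limited the ratios to bounds.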
